A study of Mus musculus with 33 samples.

Results

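The 10 genes studied belong to hypothalamic feeding and growth hormone control. They were chosen by name out of 41565 named entries of the deposited table, with earlier results of these data known. They are the hunger peptides *Agrp* and *Npy*, the satiety peptides *Pomc* and *Cartpt*, the growth hormone peptides *Ghrh* and *Sst*, and the receptors *Lepr*, *Mc4r*, *Npy1r* and *Npy2r*. They were measured by bulk RNA-seq in 33 libraries of dissected hypothalamus from WT C57BL/6 female mice, made to follow the loss of ovarian estrogen. Mice were ovariectomized (OVX) as adults of 3 to 4 months and killed 14 days or 4 months later, and the intact mice were killed in diestrus. The posterior hypothalamus (PH), which holds the arcuate nucleus, had 4 intact, 6 14-day and 6 4-month libraries, and the preoptic area (POA) had 5, 6 and 6. Titles call the control libraries sham, whereas another label and the methods call them intact, and they are named intact throughout. The time of 1 POA library of the 14-day group came from its title. The intact mice were not age-matched to the 4-month group, so time after OVX and age cannot be told apart. The labels place each library in 1 of 2 batches, with 2 or 3 libraries of every group in each.

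As background, hunger neurons of the arcuate nucleus make AgRP and NPY, and neighbouring satiety neurons make POMC, from which α-MSH is cut, together with the CART peptide in many of them. α-MSH activates the melanocortin 4 receptor to reduce food intake and AgRP opposes it there, while leptin acts on both cell groups through its receptor. GHRH neurons of the arcuate nucleus drive the release of growth hormone from the pituitary, and somatostatin restrains it. CART and somatostatin are also made by many other neurons of the brain, and *Pomc* is strongly expressed by cells of the pituitary.

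All 10 genes were above background. The deposited values are decimal, linear expression values in which most genes without expression lie near a floor of 22.0 and not at 0, with single values down to 9.94, and each of the 10 reached 2 times the floor in 33 of 33 libraries. *Agrp* was nearest to the floor, at 47.6 to 126, and *Sst* was farthest from it, at 1898 to 4008. If the floor is part of every value, which was not tested, fold changes are understated, most for the genes with the lowest values, *Agrp*, *Ghrh* and *Mc4r*. Whether the values are scaled to gene length is not given, so their order between genes is not read. The levels of the PH and the POA were nearly equal, and the absolute log2 difference between the regions had a median of 0.0479 over the expressed genes. *Agrp*, an arcuate gene, accordingly lay at 53.9 to 126 in the PH and 47.6 to 108 in the POA, and the 12 transcription factors listed for arcuate neurons reached 2 times the floor in every PH library and 11 or 12 of them in every library of each POA group. The step that made the table is not given, so whether it reduced differences between the regions is unknown. The arcuate origin of the PH values can therefore not be read from the levels, and only changes within a region are compared. The depth of the libraries is unknown.

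Some libraries carried transcripts of the pituitary, the gland below the hypothalamus. *Gh* or *Prl*, its growth hormone and prolactin genes, reached 10 times the floor in 9 of 33 libraries. In the PH these were 1 of 4 intact, 3 of 6 14-day and 0 of 6 4-month libraries, and in the POA 1 of 5, 4 of 6 and 0 of 6. The summed value of the 10 pituitary markers ranged in the PH from 393 to 4249 in intact, 497 to 1201 in 14-day and 382 to 550 in 4-month libraries. In the POA these ranges were 319 to 1949, 412 to 7380 and 351 to 476. *Lhb*, *Fshb*, *Pitx1* and *Pou1f1* stayed under 2 times the floor in every PH library and in the intact and 4-month POA libraries. *Tshb*, another of the 10, reached 2 times the floor in every library, at 91.1 to 259, also where *Gh* and *Prl* lay at the floor. It and the genes at the floor add to each sum, so the low sums are not read as pituitary signal. In the PH, 1 library stood apart, 14-day replicate 5, with 0.786 on the first surrogate variable (SV1). The other 15 lay between -0.311 and 0.194. SV1 is the main pattern of variation, with genes weighted towards those that vary apart from the groups. Group differences were not taken out of it, so it can overlap with the groups. Adjusting for SV1 gives 14-day replicate 5 less weight in the PH values at 14 days. In the POA, SV1 separated the batches.

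No gene of the 10 was called in any comparison. The log2 values of a region were fitted with limma on the 3 groups and SV1, with Benjamini-Hochberg adjustment of the *P* values across every tested gene. At an adjusted *P* under 0.05, 0 of the 10 were called in the PH at 14 days versus intact, where 0% of all 22021 genes tested were called. At 4 months versus intact, 0 of the 10 were called beside 0.0318% of all, and at 4 months versus 14 days 0 of the 10 beside 0.00908%. In the POA, with 21388 genes tested, 0 of the 10 were called in each comparison beside 0.00468%, 0.0935% and 0.0281% of all genes. The smallest adjusted *P* of the 10 genes over the 6 comparisons was 0.361 (limma). Calls were rare over all genes, and the 10 were not tested for differing from the rest. At an unadjusted *P* under 0.05 stood 3 of the 10 in the PH at 14 days (3.04% of all genes), 2 at 4 months (6.07%) and 1 between the OVX groups (4.09%). In the POA these were 2 at 14 days (6.14%), 2 at 4 months (8.5%) and 1 between the OVX groups (5.11%). Of these 11 differences among 60, 8 were lower and 3 higher, but some genes are counted more than once. *Lepr* in the PH and *Pomc* in the POA were higher at 14 days versus intact and lower at 4 months versus 14 days. Both of these comparisons use the same 14-day libraries. *Agrp* in the PH and *Cartpt* in the POA were lower at both times versus intact. Both OVX groups were set against the same intact libraries, so the values at 14 days and 4 months are not independent. Nothing in the sources says that libraries of a group came from separate mice, and *P* values measure the spread between libraries.

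**Figure D1:**
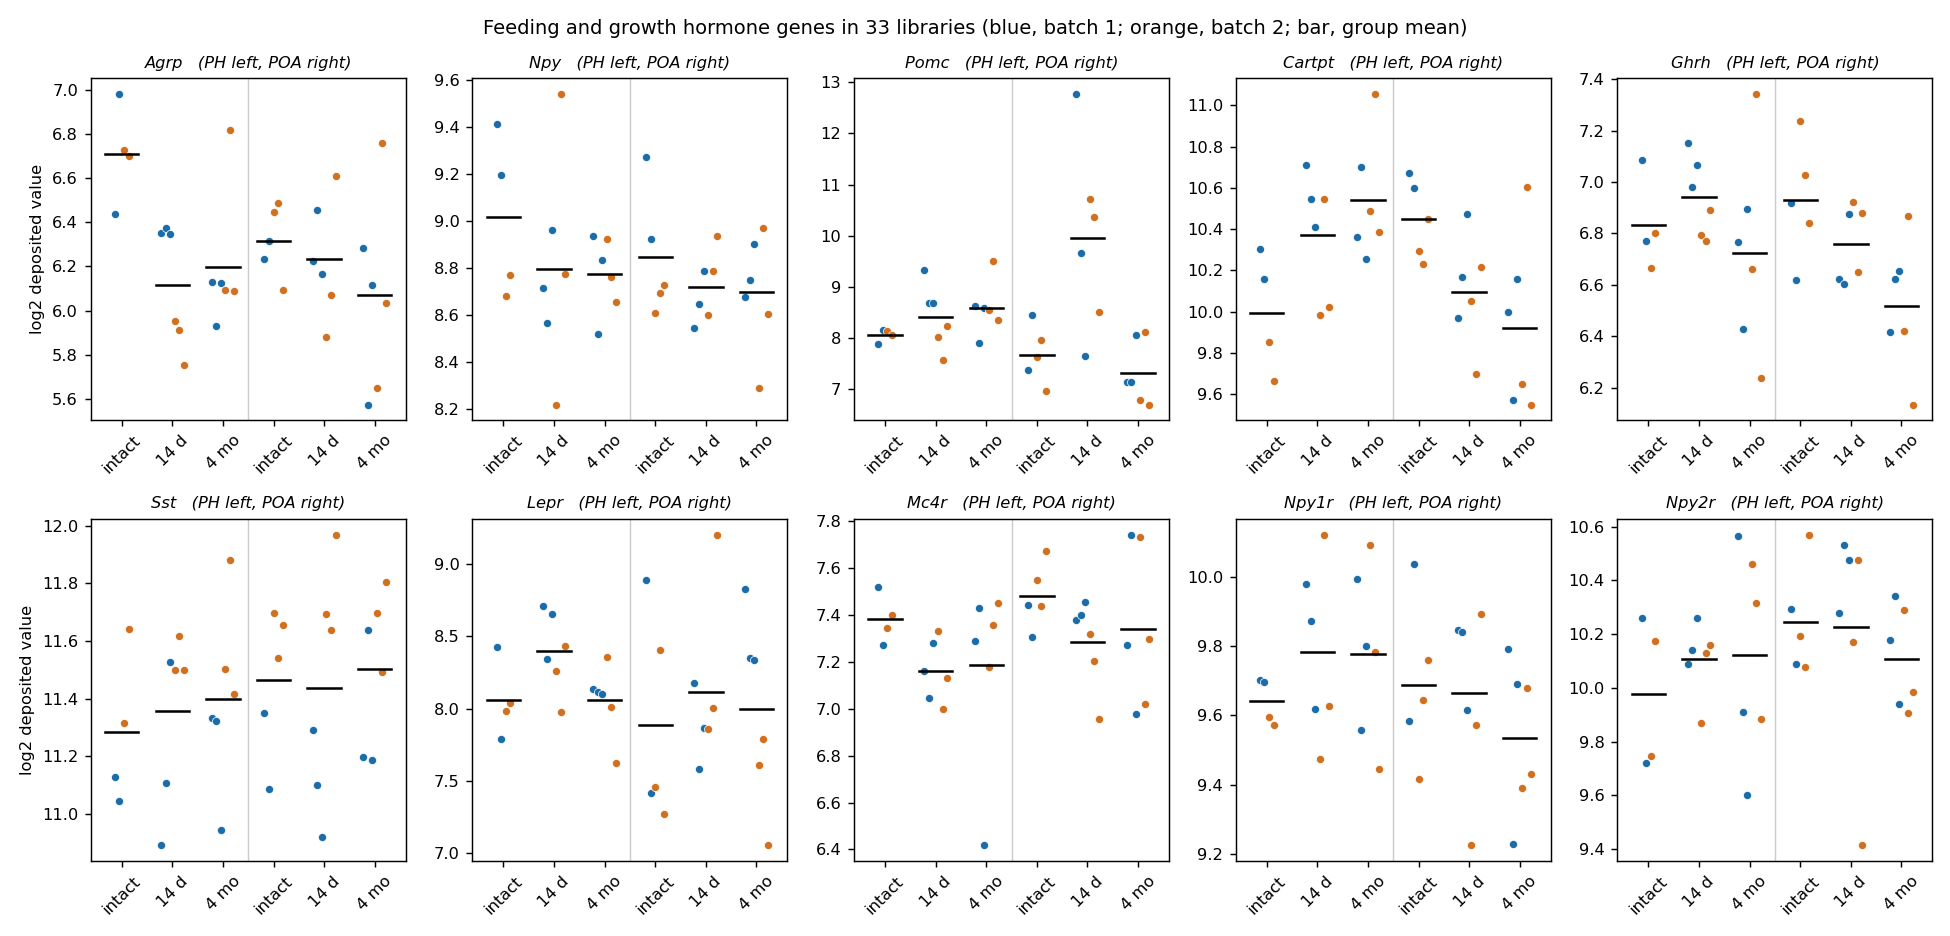
Log2 deposited value of each of the 10 genes in every library, with the PH groups left of the grey line and the POA groups right of it; points are libraries, blue for batch 1 and orange for batch 2, and bars are group means, and each panel has its own axis. In the PH, the 14-day libraries of *Agrp* sit below every intact library, and in the POA, 4 of the 6 14-day libraries of *Pomc* sit above all others.

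*Agrp*, which encodes the peptide that blocks melanocortin receptors, was lower after OVX in the PH. The intact PH libraries had values of 86.6, 126, 106 and 104. At 14 days they ran from 53.9 to 83.0 with a median of 71.6, and at 4 months from 60.9 to 113 with a median of 68.9. All 6 14-day libraries lay below the lowest intact library, and 5 of 6 did so at 4 months, with 4-month replicate 5 at 113 as the exception. Groups without overlap were 0.572% of all genes at 14 days, 0.949% at 4 months and 0.236% between the OVX groups, and *Agrp* at 14 days was the one case among the 10 genes in these 3 comparisons. The log2 fold change was -0.57 at 14 days (95% interval -0.96 to -0.18, unadjusted *P* = 0.0063, adjusted *P* = 1, limma) and -0.52 at 4 months (-0.90 to -0.14, unadjusted *P* = 0.00985, adjusted *P* = 0.638, limma). The difference between 14 days and 4 months was 0.053 (-0.31 to 0.41). Within batches, the differences were -0.35 and -0.84 at 14 days and -0.65 and -0.38 at 4 months. Without the libraries rich in *Gh* or *Prl*, they were -0.66 and -0.53. In these bulk samples, fewer cells of a type and less RNA per cell cannot be told apart. In the POA, *Agrp* had medians of 79.6, 73.2 and 67.5 in intact, 14-day and 4-month libraries, and its log2 fold changes of -0.066 (-0.45 to 0.31) and -0.23 (-0.61 to 0.15) were within the spread.

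The *Agrp* gene lies on chromosome 8 of GRCm39 (106293326 to 106364065, minus strand, GENCODE M39). Of its 5 annotated transcripts, 3 start more than 10000 bp upstream of the last start, up to 69624 bp away, and its exons overlap those of *Gm5914* on the same strand and of *Ctcf* and *Gm38250* on the opposite strand. The value of *Agrp* is summed over its transcripts, so part of it can come from the long ones, and the transcripts were not measured apart here. The exons of the other 8 genes whose positions are given here overlap no other annotated gene.

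*Npy*, the partner of *Agrp* in hunger neurons, was lower at 14 days in the PH by less. Intact libraries had 681, 586, 410 and 436, the first 2 of them in batch 1 and the others in batch 2. The 14-day libraries ran from 297 to 744 with a median of 428, and the 4-month libraries from 366 to 489 with a median of 445. The groups overlapped, and the highest value of all was that of 14-day replicate 5, the library that SV1 sets apart. *Npy* had a log2 fold change of -0.37 at 14 days (95% interval -0.67 to -0.07, unadjusted *P* = 0.0173, adjusted *P* = 1, limma) and -0.20 at 4 months (-0.49 to 0.089). Without SV1 in the fit, the 14-day value was -0.22. Within batches, the 14-day difference, also without SV1, was -0.56 in batch 1 and 0.12 in batch 2. Its direction did not hold within both, and 14-day replicate 5 is in batch 2. In the POA, *Npy* had medians of 424, 421 and 420, with log2 fold changes of -0.14 (-0.41 to 0.12) and -0.16 (-0.43 to 0.10). *Npy* (chromosome 6, 49799026 to 49806489, plus strand) is also expressed by neurons outside the arcuate nucleus.

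**Figure D2:**
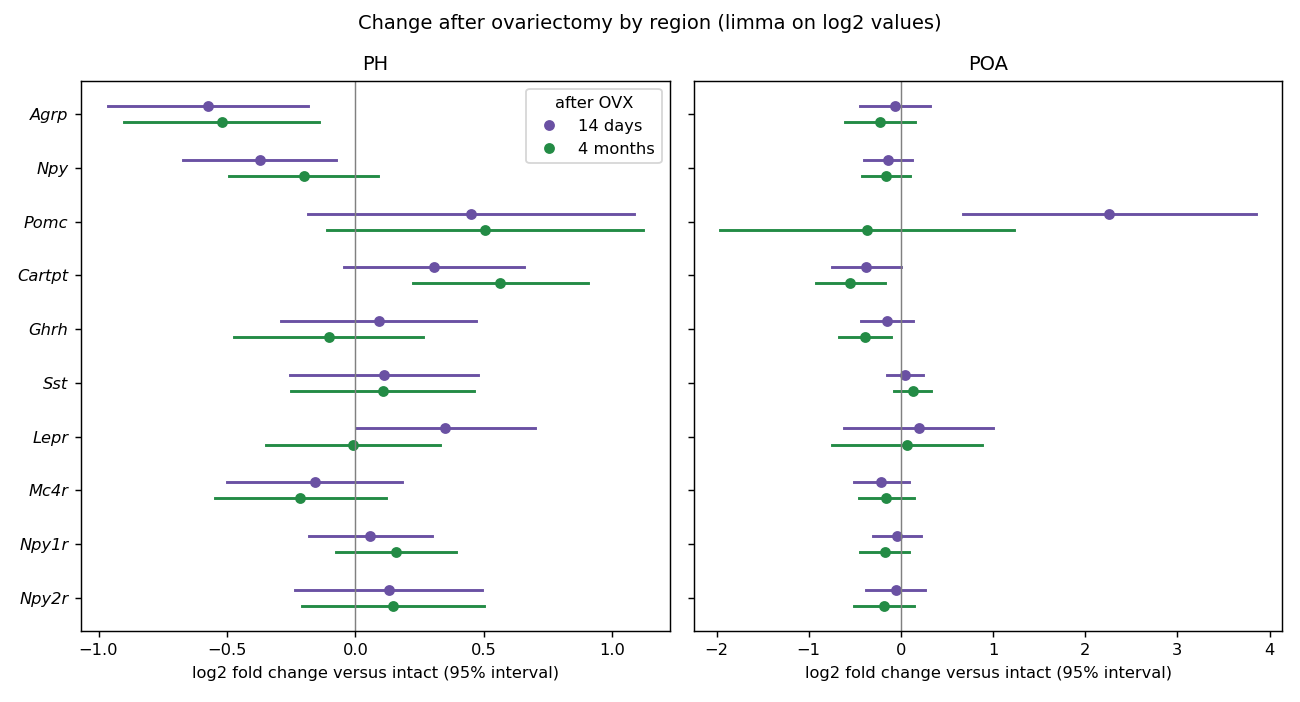
Log2 fold change of each gene versus intact mice at 14 days (purple) and 4 months (green) in the PH and the POA, with 95% intervals from limma; the axes of the panels differ in range. *Agrp* lies at -0.57 and -0.52 in the PH, *Cartpt* at 4 months at 0.56 in the PH but at -0.55 in the POA, and *Pomc* at 2.26 in the POA at 14 days, with the widest interval.

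*Pomc*, the precursor of α-MSH and, in the pituitary, of ACTH, was higher after OVX in most PH libraries, with a wide spread. Intact libraries had 235, 284, 283 and 268. The 14-day libraries ran from 190 to 640 with a median of 355, and the 4-month libraries from 241 to 725 with a median of 379. Of the 14-day libraries 4 of 6 lay above every intact library and 1 below, and of the 4-month libraries 5 of 6 lay above. The log2 fold changes were 0.45 (95% interval -0.18 to 1.08) at 14 days and 0.50 (-0.11 to 1.12) at 4 months. Within batches, the differences without SV1 were 0.88 and -0.17 at 14 days, and 0.36 and 0.70 at 4 months. The 6 4-month PH libraries all had *Gh* and *Prl* below 10 times the floor. The highest *Pomc* value, 725 in 4-month replicate 5, came with the highest sum of the 2 ventromedial markers in the PH (733 against 327 to 528 in the other libraries), and r with these markers was 0.60 over the 16 libraries. The same library had the highest sum of the 12 arcuate transcription factors in the PH, at 8149, and r of *Pomc* with their mean was 0.41. Without this library the 4-month value was 0.33. *Pomc* lies on chromosome 12 (4004944 to 4010642, plus strand).

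In the POA, *Pomc* showed its largest values, in the libraries with pituitary transcripts. Intact libraries had 166, 350, 198, 248 and 124. The 14-day libraries had 6985, 810, 200, 1691, 1325 and 365 in replicates 1 to 6, and the 4-month libraries ran from 104 to 279 with a median of 141. The 14-day replicates 1, 2, 4 and 5 lay above all other libraries of both regions. The log2 fold change was 2.26 at 14 days (95% interval 0.67 to 3.85, unadjusted *P* = 0.00887, adjusted *P* = 0.8, limma) and -2.62 at 4 months versus 14 days (-4.13 to -1.12, unadjusted *P* = 0.00229, adjusted *P* = 0.709, limma). At 4 months versus intact it was -0.36 (-1.96 to 1.23). The same 4 libraries had *Gh* at 1513, 317, 3634 and 798 and *Prl* at 1777, 359, 2920 and 857. The intact library with the highest *Pomc*, replicate 2, had *Gh* at 290 and *Prl* at 1214. In the remaining POA libraries *Pomc* was 124 to 248 in 4 intact, 200 and 365 in 2 14-day and 104 to 279 in 6 4-month libraries. Over the 17 POA libraries, the log2 value of *Pomc* had a Pearson r of 0.90 with *Gh* and 0.87 with *Prl* (Spearman rho 0.659 and 0.885), and over the 16 PH libraries 0.17 and 0.043 (0.20 and 0.10). Without the libraries rich in *Gh* or *Prl*, the log2 fold change at 14 days in the POA was 0.66 (adjusted *P* = 0.584, limma), with 2 libraries left at 14 days. It was -0.74 at 4 months versus 14 days. *Tbx19* is the transcription factor of the pituitary cells that make *Pomc*. In 14-day replicates 1, 2, 4 and 5 it lay near the floor of 22.0, at 57.4, 39.1, 35.3 and 28.4. Intact libraries had 26.3 to 59.1, the highest in replicate 2, itself rich in *Gh* and *Prl*. At values this close to the floor, *Tbx19* cannot sort the libraries.

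**Figure D3:**
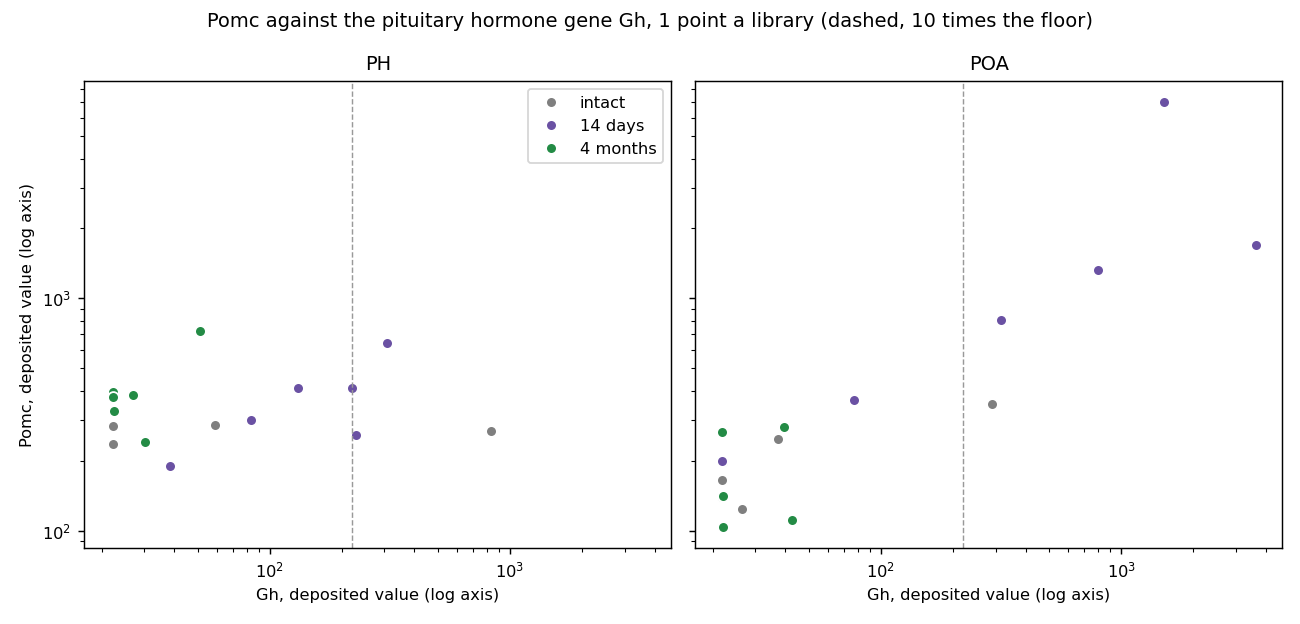
*Pomc* against the growth hormone gene *Gh* in the PH and the POA, both as deposited values on log axes; each point is a library, grey for intact, purple for 14 days and green for 4 months, and the dashed line is at 10 times the floor. In the POA the 14-day libraries run up to 6985 for *Pomc* along with *Gh*, whereas the PH intact library with *Gh* at 832 has *Pomc* at 268.

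*Cartpt*, which encodes the CART peptide, was higher in the PH and lower in the POA after OVX. In the PH, intact libraries had 1265, 1141, 926 and 811. The 14-day libraries ran from 1011 to 1676 with a median of 1427, and the 4-month libraries from 1222 to 2127 with a median of 1387. Of the OVX libraries, 4 of 6 at 14 days and 5 of 6 at 4 months lay above every intact library. The log2 fold change was 0.31 at 14 days (95% interval -0.043 to 0.66) and 0.56 at 4 months (0.22 to 0.90, unadjusted *P* = 0.00271, adjusted *P* = 0.456, limma). Within batches, the 4-month difference without SV1 was 0.21 in batch 1 and 0.88 in batch 2. Without 4-month replicate 5, the highest library at 2127, the log2 fold change at 4 months was 0.46.

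The order was opposite in the POA. Intact libraries had *Cartpt* at 1630, 1549, 1255, 1202 and 1397, the 14-day libraries ran from 830 to 1422 with a median of 1106, and the 4-month libraries from 749 to 1555 with a median of 913. Of each OVX group, 5 of 6 libraries lay below every intact library. The exceptions were 14-day replicate 3 at 1422 and 4-month replicate 5 at 1555. The log2 fold change was -0.37 at 14 days (95% interval -0.75 to -0.0008, unadjusted *P* = 0.0496, adjusted *P* = 0.807, limma) and -0.55 at 4 months (-0.93 to -0.18, unadjusted *P* = 0.00657, adjusted *P* = 0.361, limma). Within batches, the differences without SV1 were -0.43 and -0.34 at 14 days and -0.73 and -0.39 at 4 months. One library decided the call at 4 months, since without 4-month replicate 5 the log2 fold change was -0.74 (adjusted *P* = 0.0209, limma). Without the libraries rich in *Gh* or *Prl*, the 14-day value was -0.084 with 2 14-day libraries left, and the 4-month value was -0.51. *Cartpt* (chromosome 13, 100034990 to 100047006, minus strand) is also expressed in the striatum, which borders the POA. The 7 striatal markers summed to 5564 to 8878 in intact, 5158 to 7109 in 14-day and 5058 to 9206 in 4-month POA libraries, all 7 were above 2 times the floor in every library, and the highest sum was that of 4-month replicate 5. Their mean log2 value had a Pearson r of 0.40 with *Cartpt* over the 17 POA libraries and -0.18 over the 16 PH libraries, where the sums were 6192 to 10764, 5127 to 7099 and 3675 to 9698, and their part in the result was not tested. Some of the other marker lists had a larger absolute r with *Cartpt* in the POA than the striatal one. The arcuate, thalamic, choroid and pituitary lists had a smaller one, with r of -0.23, 0.21, -0.17 and -0.056. For *Cartpt*, r was 0.73 with the mean of the 4 tanycyte markers (rho 0.694), 0.61 with the 3 mammillary, 0.54 with the 2 ventromedial and -0.47 with the 6 neuronal ones. In the PH, the tanycyte, mammillary, ventromedial and neuronal values were -0.067, 0.54, 0.40 and 0.12. The tanycyte markers summed to 7142 to 8913 in intact, 6010 to 9114 in 14-day and 7514 to 8405 in 4-month POA libraries, and the mammillary ones to 612 to 937, 612 to 1190 and 487 to 958. The part of these tissues and cell types in the *Cartpt* values was not tested.

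To ask whether the differences after OVX were unlike in PH and POA, the interaction of region and group was fitted over the 33 libraries for 23043 genes. The methods say that both regions were taken from the females, and the fit treats PH and POA libraries as independent although some may share a mouse. How the unknown step that made the table bears on differences between the regions was not tested. At an adjusted *P* under 0.05, 0 of the 10 genes were called at 14 days (0.00434% of all) and 0 at 4 months (0.00868%). At an unadjusted *P* under 0.05 stood 2 of the 10 at 14 days (3.07% of all), *Cartpt* and *Pomc*, and 2 at 4 months (3.69%), *Cartpt* and *Npy1r*. For *Cartpt*, the PH change exceeded the POA change by 1.13 on the log2 scale at 4 months (SE 0.24, unadjusted *P* = 5.88e-05, adjusted *P* = 0.396, limma) and by 0.69 at 14 days (SE 0.24, unadjusted *P* = 0.00784, adjusted *P* = 1, limma). Without the libraries rich in *Gh* or *Prl*, the POA change of *Cartpt* at 14 days was -0.084. The difference between the regions was not refitted without those libraries. Leaving out single libraries gave a difference of 1.02 to 1.30 for *Cartpt* at 4 months. The adjusted *P* was 0.0051 (limma) without POA 4-month replicate 5, so 1 library again decided the call. At 4 months, 6 of 6 PH libraries lay above the intact mean and 5 of 6 POA libraries below it. For *Pomc* at 14 days the difference was -1.90 (SE 0.82, unadjusted *P* = 0.0292, adjusted *P* = 1, limma), in a fit that holds the POA libraries with pituitary transcripts, whose part in it was not tested. For *Npy1r* at 4 months it was 0.35 (SE 0.17, unadjusted *P* = 0.0487, adjusted *P* = 1, limma). The other differences at 4 months lay between -0.28 for *Agrp* and 0.85 for *Pomc*, and none of the 8 had an unadjusted *P* under 0.05.

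**Figure D4:**
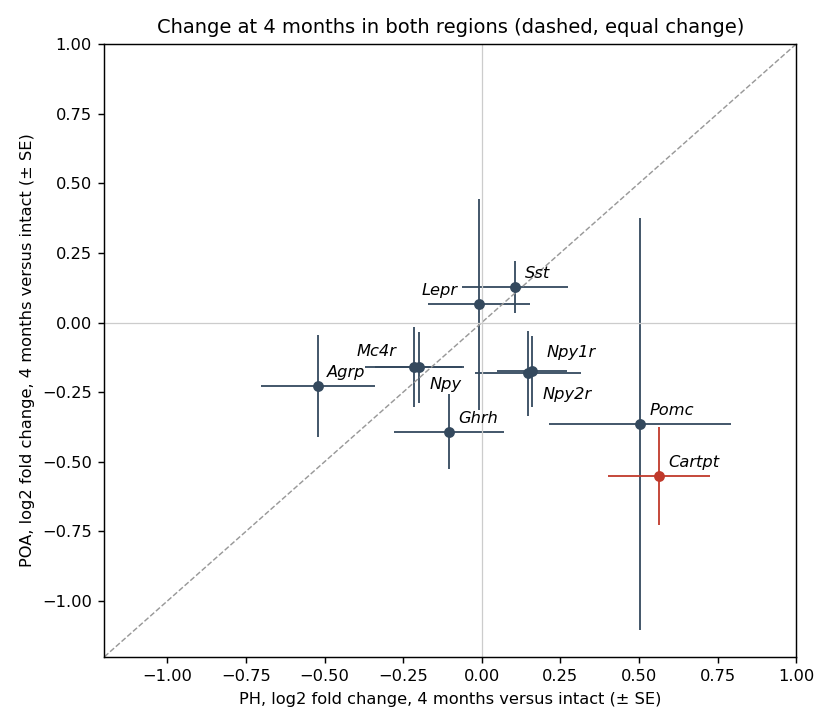
Log2 fold change at 4 months versus intact in the PH (horizontal) against the POA (vertical), 1 point a gene with SE bars; the dashed line marks equal change in both regions. *Cartpt*, in red, lies farthest from the line, at 0.56 and -0.55.

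*Ghrh*, the peptide that releases growth hormone, showed lower values in the POA with time after OVX. Intact POA libraries had 121, 98.4, 151, 130 and 114, the 14-day libraries ran from 97.2 to 121 with a median of 109, and the 4-month libraries from 70.2 to 117 with a median of 92.1. At 4 months, 3 of 6 libraries lay below every intact library, and the groups overlapped. The log2 fold change was -0.15 at 14 days (95% interval -0.44 to 0.13) and -0.39 at 4 months (-0.67 to -0.11, unadjusted *P* = 0.00894, adjusted *P* = 0.383, limma). Within batches, the 4-month differences without SV1 were -0.21 and -0.56. In the PH, where the arcuate GHRH neurons lie, *Ghrh* had medians of 110, 122 and 105, and its log2 fold changes were 0.091 (-0.29 to 0.47) and -0.10 (-0.47 to 0.26). *Ghrh* lies on chromosome 2 (157171414 to 157191485, minus strand), and the gene most like it in the PH, *Scn7a*, is on the list of markers of tanycytes, glia of the ventricle wall. The mean of the 4 tanycyte markers had an r of only 0.23 with *Ghrh* in the PH. For the mammillary, ventromedial and arcuate lists r was 0.59, 0.55 and 0.48.

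*Sst*, the peptide that restrains growth hormone release, differed little between the groups. Its PH medians were 2393, 2898 and 2656 and its POA medians 2976, 2847 and 3035 in intact, 14-day and 4-month libraries. The log2 fold changes versus intact lay between 0.048 and 0.13 over both regions and times, and the intervals in the POA, -0.15 to 0.24 and -0.070 to 0.32, were the narrowest of the 10 genes. The batches differed more than the groups, with batch 2 above batch 1 by 0.39 in the PH and 0.47 in the POA on the log2 scale, and in the same direction in each of the 6 groups. *Sst* lies on chromosome 16 (23707321 to 23711733, minus strand).

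*Lepr*, the leptin receptor, had higher values in the PH at 14 days than in intact mice or at 4 months. Intact libraries had 344, 222, 254 and 263, the 14-day libraries ran from 251 to 419 with a median of 335, and the 4-month libraries from 197 to 328 with a median of 276. At 14 days, 3 of 6 libraries lay above every intact library. *Lepr* had log2 fold changes of 0.35 at 14 days (95% interval 0.00053 to 0.70, unadjusted *P* = 0.0497, adjusted *P* = 1, limma), -0.008 at 4 months (-0.35 to 0.33) and -0.36 at 4 months versus 14 days (-0.68 to -0.036, unadjusted *P* = 0.0313, adjusted *P* = 1, limma). Within batches, the 14-day difference was 0.46 and 0.21, and that between the OVX groups -0.45 and -0.22. Without the libraries rich in *Gh* or *Prl*, which include 3 of the 6 at 14 days, the 14-day value was 0.21.

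In the POA, *Lepr* varied widely between libraries of a group, with SDs of 0.72, 0.57 and 0.64 on the log2 scale in intact, 14-day and 4-month libraries. Intact libraries had 475, 171, 176, 340 and 154, the 14-day libraries ran from 192 to 590 and the 4-month libraries from 133 to 455. The SD over the 17 libraries was 0.60 on the log2 scale against 0.29 in the PH. Log2 fold changes of 0.19 (95% interval -0.62 to 1.00) and 0.066 (-0.74 to 0.88) left changes of either sign possible. Leptin receptor is also made by the choroid plexus, and the 3 choroid markers summed to 1827 to 82645 in intact, 2138 to 59684 in 14-day and 1508 to 25621 in 4-month POA libraries, all 3 above 2 times the floor in each. Their mean log2 value had a Pearson r of 0.52 with *Lepr* over the 17 libraries (Spearman rho 0.488), and 0.34 over the 16 PH libraries. The 3 protein-coding genes whose log2 values were most like those of *Lepr* in the POA were *Igf2* (r = 0.89), *Slc13a4* (0.87) and *Anxa1* (0.87), and the part of choroid plexus in the values was not tested. *Lepr* lies on chromosome 4 (101574601 to 101676237, plus strand).

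*Mc4r*, the receptor for α-MSH, had lower group means after OVX in both regions, within the spread. In the PH, intact libraries had 183, 154, 163 and 169, the 14-day libraries ran from 128 to 161 with a median of 142, and the 4-month libraries from 85.5 to 175 with a median of 160. In the POA, the medians were 174, 163 and 156. The log2 fold changes were -0.16 (95% interval -0.50 to 0.18) and -0.21 (-0.55 to 0.12) in the PH and -0.21 (-0.51 to 0.087) and -0.16 (-0.46 to 0.14) in the POA. At 14 days, 6 of 6 libraries lay below the intact mean in each region. *Mc4r* went against the markers of the thalamus, with r = -0.73 for the mean of the 4 markers in each region. The lowest *Mc4r* library, PH 4-month replicate 3 at 85.5, had the highest thalamic sum of the PH (51142 against 13536 to 33727), and without it the 4-month value in the PH was -0.057.

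*Npy1r* and *Npy2r*, the receptors through which NPY acts on its target cells and on NPY neurons themselves, showed small differences. *Npy1r* had PH medians of 802, 864 and 887 and POA medians of 800, 850 and 756, with log2 fold changes of 0.059 (95% interval -0.18 to 0.30) and 0.16 (-0.074 to 0.39) in the PH and -0.042 (-0.31 to 0.22) and -0.17 (-0.44 to 0.091) in the POA. *Npy2r* had PH medians of 1007, 1124 and 1119 and POA medians of 1170, 1334 and 1085, with log2 fold changes of 0.13 (-0.23 to 0.49), 0.15 (-0.21 to 0.50), -0.058 (-0.38 to 0.27) and -0.18 (-0.51 to 0.14). All 8 intervals lay between -0.51 and 0.50. In the POA, *Npy2r* had an r of -0.76 with the thalamic and 0.81 with the neuronal markers over the 17 libraries. The part of other tissue in the *Mc4r* and *Npy2r* values was not tested. *Npy1r* lies on chromosome 8 (67149364 to 67159731, plus strand) and *Npy2r* on chromosome 3 (82444312 to 82455409, minus strand).

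No gene among the 10 had groups without overlap in the POA, where 0.411% of all genes did so at 14 days, 0.664% at 4 months and 0.112% between the OVX groups.

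Genes that act with the 10 were taken from hand-written lists, and none was called in any of the 6 comparisons. In the PH at 4 months, groups without overlap were 0.949% of all genes. Among the listed genes, 1 each of the melanocortin and NPY, leptin and insulin, arcuate and estrogen lists had them. At 14 days it was 1 each of the leptin and insulin and arcuate lists in the PH (0.572% of all). In the POA at 14 days it was 1 of the other feeding genes (0.411%). Of 13 further genes of melanocortin and NPY signaling and propeptide processing, 12 were tested, and 0 were higher and 0 lower at an adjusted *P* under 0.05 (limma). Their median log2 fold change at 4 months was 0.012 in the PH and -0.0091 in the POA, beside -0.0094 and -0.010 over all genes. *Pam*, which amidates α-MSH, NPY and other peptides, was 0.20 higher on the log2 scale in the PH at 4 months (SE 0.095, unadjusted *P* = 0.0446, adjusted *P* = 0.805, limma). All 6 of its 4-month libraries exceeded the intact ones, and it stood at -0.073 in the POA. *Dpp4*, a peptidase that trims NPY, was at -0.19 and -0.31. Of 10 genes of leptin and insulin signaling, all 10 were tested, and the medians at 4 months were 0.027 and -0.080. *Stat3*, the transcription factor below the leptin receptor, was 0.30 higher in the PH at 4 months (SE 0.089, unadjusted *P* = 0.00358, adjusted *P* = 0.53, limma), again with 6 of 6 libraries above every intact one and with 0.28 and 0.31 within batches. *Ptpn2*, a phosphatase of the same pathway, was at -0.17. In the POA, the leading genes were *Jak2*, the kinase bound to the leptin receptor, at -0.12 (adjusted *P* = 0.529, limma) and *Ptpn1*, its phosphatase, at -0.16 (adjusted *P* = 0.542, limma).

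Of 15 other feeding peptides and receptors, the 4-month medians were 0.036 for the PH and -0.13 for the POA. In the PH, *Gipr*, the receptor for the gut hormone GIP, was at 0.38 (adjusted *P* = 0.73, limma) and the serotonin receptor *Htr2c* at -0.11 (adjusted *P* = 0.88, limma). In the POA, *Gpr83* was at -0.22 (SE 0.074, unadjusted *P* = 0.00741, adjusted *P* = 0.369, limma), and *Bdnf*, a neurotrophin that acts below the melanocortin 4 receptor, was at -0.38 (adjusted *P* = 0.483, limma). Of 16 genes of the growth hormone axis, 14 were tested, with medians of -0.040 and -0.076. *Igf1r*, the receptor for the growth factor that growth hormone induces, was higher in both regions at 4 months, at 0.29 in the PH (SE 0.11, unadjusted *P* = 0.0151, adjusted *P* = 0.684, limma; 5 of 6 libraries above every intact one) and 0.18 in the POA (SE 0.066, unadjusted *P* = 0.0112, adjusted *P* = 0.399, limma; 4 of 6). *Socs2*, which curbs growth hormone signaling, was at -0.30 in the PH (adjusted *P* = 0.729, limma), and the galanin receptor *Galr1* was at 0.17 in the POA (adjusted *P* = 0.723, limma).

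Of the 12 arcuate transcription factors, the medians at 4 months were -0.023 and 0.069. *Tbx3*, needed for the identity of arcuate peptide neurons, was at 0.35 in the PH (SE 0.21, adjusted *P* = 0.865, limma), where 6 of 6 libraries exceeded the intact ones, and *Isl1* at -0.23 (adjusted *P* = 0.867, limma). Groups without overlap were 0.949% of all genes in that comparison. In the POA, *Nkx2-1* was at -0.28 (adjusted *P* = 0.533, limma) and *Otp* at 0.17 (adjusted *P* = 0.819, limma). As a check of estrogen withdrawal, 4 of 5 estrogen-responsive genes were tested, with 4-month medians of 0.15 and -0.23. The 5th, *Kiss1*, reached 2 times the floor only in 1 POA 4-month library and was not tested. The list mixes genes that estrogen induces with *Tac2*, which the paper places under negative feedback by estrogen. Its median can therefore not check the withdrawal, and the genes are given singly. *Greb1*, which estrogen induces, was at 0.12 (-0.34 to 0.59) in the PH and -0.23 (-0.75 to 0.29) in the POA at 4 months, and *Esr1*, the estrogen receptor, at 0.17 and 0.055, both named after their values were seen. *Pgr*, the progesterone receptor, which estrogen induces, was lower at 4 months in the PH at -0.22 (unadjusted *P* = 0.0193, adjusted *P* = 0.712, limma; 6 of 6 libraries below every intact one) and in the POA at -0.24 (unadjusted *P* = 0.000925, adjusted *P* = 0.2, limma; 3 of 6), whereas at 14 days its values were -0.094 (-0.28 to 0.093) and -0.16 (-0.28 to -0.027). *Tac2*, the neurokinin B gene, stood at 0.47 in the PH (unadjusted *P* = 0.00704, adjusted *P* = 0.617, limma) and -0.33 in the POA (unadjusted *P* = 0.0327, adjusted *P* = 0.527, limma).

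The 10 genes varied mostly apart from each other across libraries. Over the 16 PH libraries, the Pearson r of their log2 values lay between -0.43 (*Mc4r* and *Npy1r*) and 0.58 (*Ghrh* and *Lepr*) among 45 pairs. *Agrp* and *Npy*, which are made in the same neurons, had PH and POA values of 0.15 and 0.42, and *Pomc* and *Cartpt* 0.55 and -0.064. Over the 17 POA libraries, r lay between -0.58 (*Agrp* and *Mc4r*) and 0.68 (*Mc4r* and *Npy2r*), and 5 of 45 pairs reached 0.60. These were *Agrp* with *Cartpt* (0.65) and *Npy1r* (0.64), *Cartpt* with *Npy* (0.64) and *Ghrh* (0.62), and *Mc4r* with *Npy2r*. The libraries share their dissection, batch and scaling, so these values are a description.

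**Figure D5:**
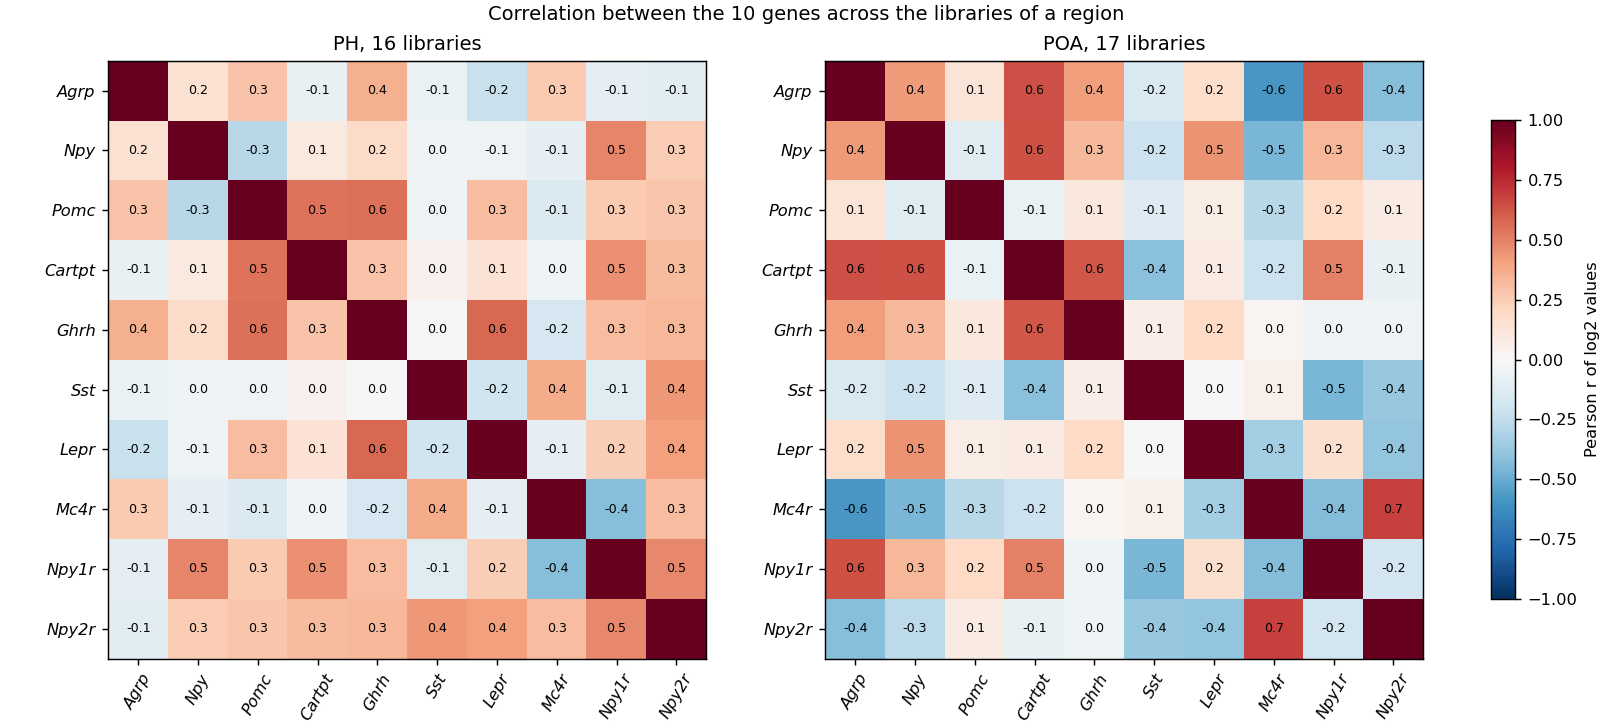
Pearson r between the log2 values of the 10 genes across the 16 PH and 17 POA libraries, from blue (negative) to red (positive), with r rounded in each cell. In the POA, *Cartpt* has r values of 0.65, 0.64 and 0.62 with *Agrp*, *Npy* and *Ghrh*, and in the PH -0.075, 0.097 and 0.29.

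For each gene, the protein-coding genes with the most similar log2 values over the libraries of a region were also sought, among 16124 PH and 15944 POA genes. In the POA, the 3 most like *Pomc* were the pituitary hormone genes *Cga* (r = 0.93), *Gh* and *Prl*, whereas in the PH they were *Tlr2* (0.82), *Tbx3* (0.80) and *Oas1a* (0.80). *Cartpt* was most like *Prdm6* in the PH (0.92), followed by *Ccdc167* (0.83) and *Pcdha8* (0.78). In the POA it was most like *Syt6* (0.88), *Pdyn* (0.87), the gene of the opioid dynorphin, and *Adamts3* (0.84). *Agrp* was most like *Gm42420* (0.81), *Glod5* (0.75) and *Mks1* (0.75) in the PH and *Fndc1* (0.91), *Parp6* (0.86) and *Chrnb4* (0.85) in the POA. *Ghrh* was most like *Scn7a* (0.86), *Galr1* (0.83) and *Cd36* (0.80) in the PH and *Nr4a3* (0.80), *Pagr1a* (0.79) and *Pwwp4c* (0.77) in the POA. *Npy* was most like *Myl12b* (0.81), *Vcpkmt* (0.81) and *Tlr4* (0.80) in the PH and *Scube2* (0.83), *Msra* (0.81) and *St3gal5* (0.78) in the POA.

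*Sst* was most like *Nenf* (0.90), *Ptprt* (0.90) and *Rpl11* (0.90) in the PH and *Tmem160* (0.95), *Endog* (0.94) and *Idh2* (0.94) in the POA. With the batch means removed, these 6 values were 0.85, 0.78, 0.82, 0.84, 0.91 and 0.80. *Lepr* was most like *Bbs5* (0.80), *Rbm8a* (0.78) and *Gjb2* (0.76) in the PH. *Mc4r* was most like *Dlx1* (0.91), *Igfbpl1* (0.88) and *Ralgds* (0.87) in the PH and *Slc25a5* (0.87), *Rpn1* (0.86) and *Minpp1* (0.86) in the POA. *Npy1r* was most like *Kcnj2* (0.91), *Dsp* (0.88) and *Atf6* (0.88) in the PH and *Aldh1a1* (0.83), *Tll1* (0.81) and *Rgs4* (0.80) in the POA. *Npy2r* was most like *Mcm6* (0.92), *Gpc4* (0.89) and *Ak5* (0.88) in the PH and *Rwdd2a* (0.96), *Magee2* (0.95) and *Araf* (0.95) in the POA. The libraries share dissection, batch and scaling here too. Of the genes most similar in the PH, *Tbx3* and *Dlx1* are on the arcuate list, *Galr1* on that of the growth hormone axis and *Scn7a* on that of tanycytes.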

How the data were processed

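The authors made stranded mRNA libraries from flash-frozen PH and POA tissue, sequenced 50-bp paired ends, pseudoaligned to mm39 with kallisto and normalized with DESeq2. The deposited table holds decimal, linear expression signal for 33 libraries and 42824 entries, and the step that produced it is not given in the sources used here. Read totals cannot be recovered, so no counting intervals were computed.

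Here, log2 values were taken without a pseudocount, and 1259 entries without a gene name, with 0.199% of the signal, were left out. Genes entered a fit with values of 2 times the floor or more in 4 PH or 5 POA libraries. Groups were compared with limma (3.58.1, R 4.3.3; trend and robust variance estimates) with SV1, estimated in 5 reweighting rounds, as covariate, after the scripts were tested on simulated data. The interaction fit kept genes at 2 times the floor in 4 libraries. The members, lists and tests were chosen with earlier results of these data known. Named genes were the 10 members, the 2 genes of each of 6 pathway lists with the smallest *P* at 4 months in each region, and, for each member, the 3 protein-coding genes with the highest Pearson r. The fits were repeated without a covariate, with batch instead of or beside SV1, with a replicate block, on only the 2 groups compared, with a pseudocount of 50, without the filter, without each library, and, chosen after seeing the data, exclusion of the 9 libraries with *Gh* or *Prl* at 10 times the floor and the alternatives for single list genes and for single differences between the regions. Positions and gene types are from GENCODE M39 (GRCm39). The position of *Mc4r* is not reported here.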

Additional observations from a re-analysis of the deposited data

Results flagged for a closer look

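Of 60 groups of libraries, 1 for each gene and group, 4 held a library that lay far from the others of its group by Dixon's test on log2 values, where chance gives about 1 in 20. *Agrp* in PH 4-month replicate 5 was high, at 113 against 70.0 in the next library, in a library with the highest ventromedial (733) and mammillary (1281) and the lowest thalamic (13536) marker sum of the PH. That library also had the highest sum of the arcuate transcription factors of the PH (8149). *Lepr* in POA 14-day replicate 6 was high, at 590 against 290, and without this library the log2 fold change of *Lepr* at 14 days turned from 0.19 to -0.15. *Npy2r* in the same library was low, at 682 against 1152, and without it the 14-day value of *Npy2r* turned from -0.058 to 0.12. This library had the highest thalamic (39872) and mammillary (1190) and the lowest neuronal (111841) marker sum of the POA, and a choroid sum of 49857. *Mc4r* in PH 4-month replicate 3 was low, at 85.5 against 145, in the library with the highest thalamic (51142) and the lowest striatal (3675) marker sum of the PH. The part of other tissue in these values was not tested.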

How the results depend on the processing

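The count of the 10 genes called stayed at 0 in all 6 comparisons and both region differences under every alternative run, except that leaving out single libraries gave 0 to 1 at 4 months versus intact in the POA and 0 to 1 for the region difference at 4 months, in both cases *Cartpt* without POA 4-month replicate 5. *Pgr* in the POA at 4 months reached an adjusted *P* of 0.0357 (limma; log2 -0.23) without POA 14-day replicate 6. The labels do not say whether shared replicate numbers pair samples. Across regions, the deviations of same-numbered libraries of a group had a median r of 0.22 (14 of 16 pairs over 0.1, lowest -0.32) beside 0.20 for same-numbered libraries of other groups and regions, so pairing was not established, and with the replicate number as a block 0 of the 10 genes were called. The block turned the log2 fold change of *Agrp* (-0.11), *Npy2r* (-0.038) and *Pomc* (-0.20) at 4 months versus 14 days in the PH, of *Lepr* (0.090) and *Sst* (-0.018) at 4 months versus intact in the PH, and of *Pomc* (0.65) at 4 months versus intact in the POA. With batch in place of SV1, and equally with no covariate, the PH values at 4 months versus 14 days turned to 0.028 for *Mc4r*, -0.024 for *Npy*, -0.0036 for *Npy1r* and 0.043 for *Sst*, and with no covariate *Sst* in the POA at 14 days turned to -0.031. Without the libraries rich in *Gh* or *Prl*, POA values at 14 days turned to 0.14 (*Agrp*), 0.0065 (*Npy*), 0.16 (*Npy1r*) and -0.0071 (*Sst*), *Lepr* at 4 months versus intact in the POA to -0.13, *Npy2r* at 4 months versus 14 days in the POA to 0.14, and *Mc4r* and *Npy2r* at 4 months versus 14 days in the PH to 0.0036 and -0.033. Leaving out single libraries, values on both sides of 0 came for 4 months versus 14 days in the PH from *Agrp* (-0.070 to 0.11), *Mc4r* (-0.11 to 0.14), *Npy2r* (-0.085 to 0.18), *Pomc* (-0.13 to 0.23) and *Sst* (-0.091 to 0.11), and in the POA from *Lepr* (-0.28 to 0.15), *Mc4r* (-0.036 to 0.13) and *Npy* (-0.091 to 0.061). The same held at 14 days in the POA for *Agrp* (-0.16 to 0.027), *Lepr* (-0.15 to 0.46), *Npy1r* (-0.13 to 0.049), *Npy2r* (-0.14 to 0.12) and *Sst* (-0.0039 to 0.095), and at 4 months versus intact for *Lepr* in the PH (-0.097 to 0.13) and the POA (-0.11 to 0.33). None of these reversed values had passed the test, and their cause was not tested.

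Counts over all genes moved more. At 4 months versus intact in the POA, the 20 genes called became 2 with no covariate, 1 with the block, 8 with no filter, 2 with only the 2 groups compared, 0 without the libraries rich in *Gh* or *Prl* and 4 to 37 without single libraries. In the PH, the 7 became 3 with batch, 4 with no covariate, 2 without those libraries and 5 to 14 without single libraries. At 4 months versus 14 days, the 2 in the PH ranged from 0 to 3 and the 6 in the POA from 0 to 7, and at 14 days the 0 in the PH and the 1 in the POA each ranged from 0 to 2 over the alternatives run. Depth is unknown, and the floor limits what *Agrp*, *Ghrh* and *Mc4r* can show.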

Other observations

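Replicate 5 of the 4-month group had the highest value of its group for *Agrp*, *Pomc*, *Cartpt* and *Ghrh* in the PH (113, 725, 2127 and 162) and also in the POA (108, 279, 1555 and 117), a pattern noticed after the values were seen. In each region it was the highest library for 5 of the 10 genes, with *Sst* as the fifth in the PH and *Npy* in the POA. Sums of the ventromedial and mammillary markers were also highest of the group there, at 733 and 1281 in the PH (POA, 524 and 958). The thalamic sum was the lowest of the PH (13536). The sum of the 12 arcuate transcription factors was also the highest of the PH there, at 8149. In the POA it was 6410, within the 5556 to 8737 of its group. The part of arcuate or other tissue in the peptide values was not tested. The labels do not say whether libraries with the same number come from the same mouse.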
